A study of Danio rerio with 3 samples.

Results

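Macrophages and neutrophils sorted from the same zebrafish embryos were compared gene by gene through 1 RNA library each. The embryos were wild type, 72 hours post fertilization, untreated, and carried both the mpeg1:mCherry and the mpx:EGFP transgene, in which the promoters of mpeg1 and mpx drive the reporters. About 1000 embryos were homogenized together, and more than 50000 cells were sorted for each of 3 populations: mCherry+, EGFP+ and double-negative cells with neither reporter. Almost no cells carried both reporters, per the study's design text, and none were collected. A population is thus what a promoter lit up in pooled whole embryos, not a dissected tissue, and no animal has a value of its own. The deposited table held 14428 genes in FPKM, which scales fragments by transcript length and library total. Taken for the comparison were 11344 genes that reached an FPKM of 1 in mCherry+ or EGFP+ cells. With 1 library per population no difference has a replicate error, none was tested, and no p-value is given. Differences are therefore described by a fixed size, a 4-fold ratio of (FPKM + 1), and log2 ratios are on that scale, which understates the differences of low genes. Where FPKM values are joined by "against", the mCherry+ library comes first.

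Macrophages and neutrophils are the phagocytes of the zebrafish larva and share much of their development under the PU.1 transcription factors. Macrophages engulf dying cells and debris, degrade them in lysosomes and recycle their lipid, iron and amino acids. Neutrophils arrive early at wounds and infections, carry ready-made granules of enzymes and peroxidase, and produce leukotrienes that draw in further cells.

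Among these 11344, a ratio of 4-fold or more toward the mCherry+ library was found for 479 (4.22%), and 410 (3.61%) were 4-fold or more lower, that is, higher in the EGFP+ library. Scaling both libraries to the same FPKM sum moved that split to 612 against 343. Most genes, 8234 (72.6%), lay within 2-fold, and the median log2 ratio was −0.09. The 4.22% and 3.61% are the shares over all genes beside which the counts of each gene list below are to be read. At least 16-fold ratios were found for 100 genes higher and 84 lower, and at least 64-fold ratios for 23 and 21. The 479 genes made up 15.3% of the mCherry+ FPKM sum and 1.13% of the EGFP+ sum. The 410 genes made up 13.7% of the EGFP+ sum and 1.04% of the mCherry+ sum. Around the threshold itself, 41 genes lay just above a log2 ratio of 2 (2.0 to 2.1) and 41 just below it (1.9 to 2.0), and on the EGFP+ side 35 and 58. Some of these genes were listed at 0 in the lower library, 54 of the 479 and 53 of the 410. A 0 is not read as absence, since psmd7, a proteasome gene that all cells use, had 0 in all 3 libraries.

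**Figure D1:**
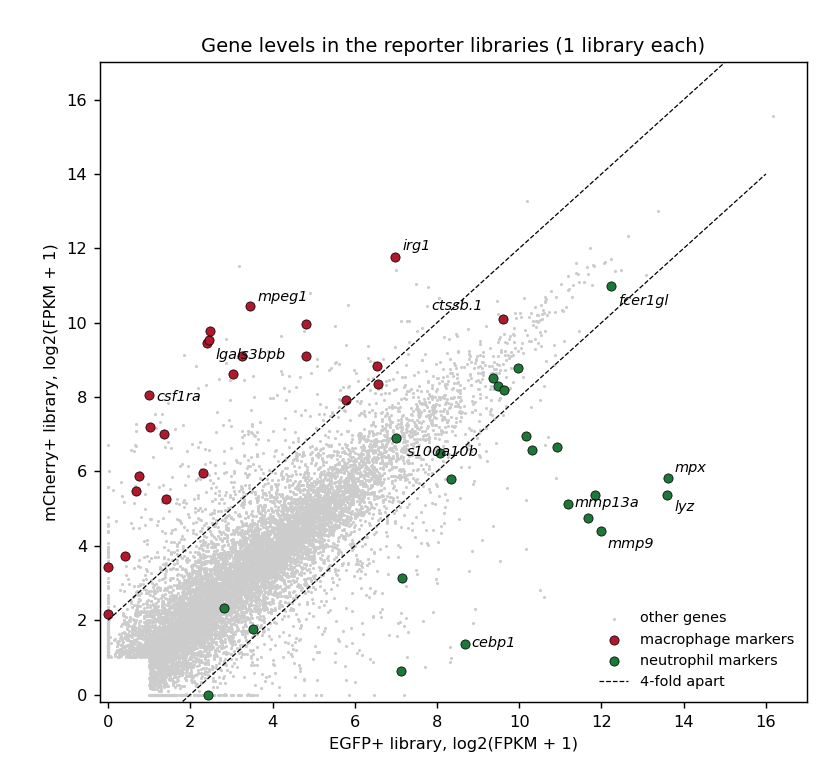
Levels of 11344 genes as log2(FPKM + 1), EGFP+ library on the x axis and mCherry+ library on the y axis, 1 library each; dashed lines mark a 4-fold ratio, red points the 23 macrophage markers and green points the 23 neutrophil markers past the floor. The macrophage markers lie above the diagonal with ctssb.1 nearest to it, and the neutrophil markers lie below it with s100a10b nearest.

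The labels of the populations were compared with marker lists that include mpeg1 and mpx, whose promoters defined the sort. These lists were written with earlier results of these data known, so they are no independent check of the labels. Markers are counted again in lists below, among them c1qa, c1qb, c1qc, cd74a, cd74b, apoeb, irg1 and ctssb.2, and lta4h, cebp1 and ncf1. Counts of those lists are thus not separate from the marker lists. Of 24 macrophage markers found, 23 passed the floor, and 21 were at least 4-fold higher in the mCherry+ library (median log2 ratio 4.80). Without mpeg1 these were 20 of 22 (median 4.80). Of 23 neutrophil markers found all passed, and 14 were at least 4-fold lower (median −3.22). Without mpx these were 13 of 22 (median −2.88). For markers that reached an FPKM of 10, the level in the other library was taken as a share of that in their own. Lowest of the macrophage markers was the CSF1 receptor gene csf1ra, in the EGFP+ library at 0.384% of its mCherry+ level. Lowest of the neutrophil markers was the lysozyme gene lyz, in the mCherry+ library at 0.326% of its EGFP+ level. Across the 20 macrophage markers other than mpeg1 that reached an FPKM of 10 the EGFP+ share of the mCherry+ level had a median of 2.27%, and 16 were under 10%. Across the 20 neutrophil markers other than mpx the corresponding median was 9.03%, and 10 were under 10%. The largest share on the macrophage side was that of the cathepsin S gene ctssb.1, at 1094 against 783. On the neutrophil side it was that of s100a10b, at 118 in mCherry+, 127 in EGFP+ and 151 in double-negative cells (log2 ratio −0.10), highest in cells with neither reporter, so this gene did not set the EGFP+ cells apart. Next came the G-CSF receptor gene csf3r at 365 against 659, zgc:153073 (vsir) at 436 against 997, the oxidase subunit ncf1 at 313 against 718 and the Fc receptor gamma gene fcer1gl at 2011 against 4832, all high in both libraries. In sorted bulk samples fewer cells of a type and less RNA per cell cannot be told apart.

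Receptors, secreted proteins and enzymes were among the largest ratios toward the mCherry+ library. The phosphatidylserine receptor gene havcr1 was at 563 in mCherry+, 2.58 in EGFP+ and 0.994 in double-negative cells (log2 ratio 7.30). The connexin gene cx32.2 was at 738 in mCherry+, 4.47 in EGFP+ and 1.30 in double-negative cells (log2 ratio 7.08). Both were near the double-negative level in EGFP+ cells. The secreted scavenger-domain gene lgals3bpb was at 702 against 4.28, csf1ra at 263 against 1.01, the membrane transporter gene abcg2a at 454 against 3.44 and the heat-gated channel gene trpv1 at 184 against 1.21. The sphingomyelinase gene smpd2 (154 against 0.602), the osteoclast fusion protein gene ocstamp (136 against 0.608), the fibrinogen-like gene fgl2 (93.9 against 0.461) and the stomatin-like gene stoml3b (481 against 6.25) showed log2 ratios of 6.02 to 6.60. The theta isoform of protein kinase C, prkcq, was at 161 against 1.41. The microfibril-associated gene mfap4, a macrophage marker in zebrafish, was at 393 against 7.17, and its neighbour in name zgc:173915 (mfap4.2 in RefSeq) at 753 against 6.36.

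At the other end stood granule genes and a few enzymes. The lysozyme gene lyz was at 40.2 in mCherry+, 12339.8 in EGFP+ and 2.41 in double-negative cells (log2 ratio −8.23), and mpx, the myeloperoxidase gene, at 55.8 in mCherry+, 12480.0 in EGFP+ and 3.10 in double-negative cells (log2 ratio −7.78). The collagenase mmp13a (26 against 3288), the gelatinase mmp9 (19.9 against 4036) and the astacin protease npsn (40.2 against 3644) followed. The secreted phosphoprotein gene scpp8 was at 33.7 against 2313 and the sialidase gene neu4 at 1.03 against 154. The delta isoform of protein kinase C, prkcda, was at 3.94 against 486, opposite to prkcq. The calmodulin gene calm1b was at 11 against 741, and the adaptor gene samsn1b at 56.8 in EGFP+ cells and listed at 0 in mCherry+ cells. The type 2 cytokine il4 was at 1.51 against 430.2, and the carboxypeptidase cpa5, a mast cell gene in zebrafish, at 5.19 against 1557. The chitinase gene zgc:65788 (chia.6) was at 2.83 against 470.4, and the complement factor B-like gene zgc:158446 (cfbl) at 55.5 against 1908.

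**Figure D2:**
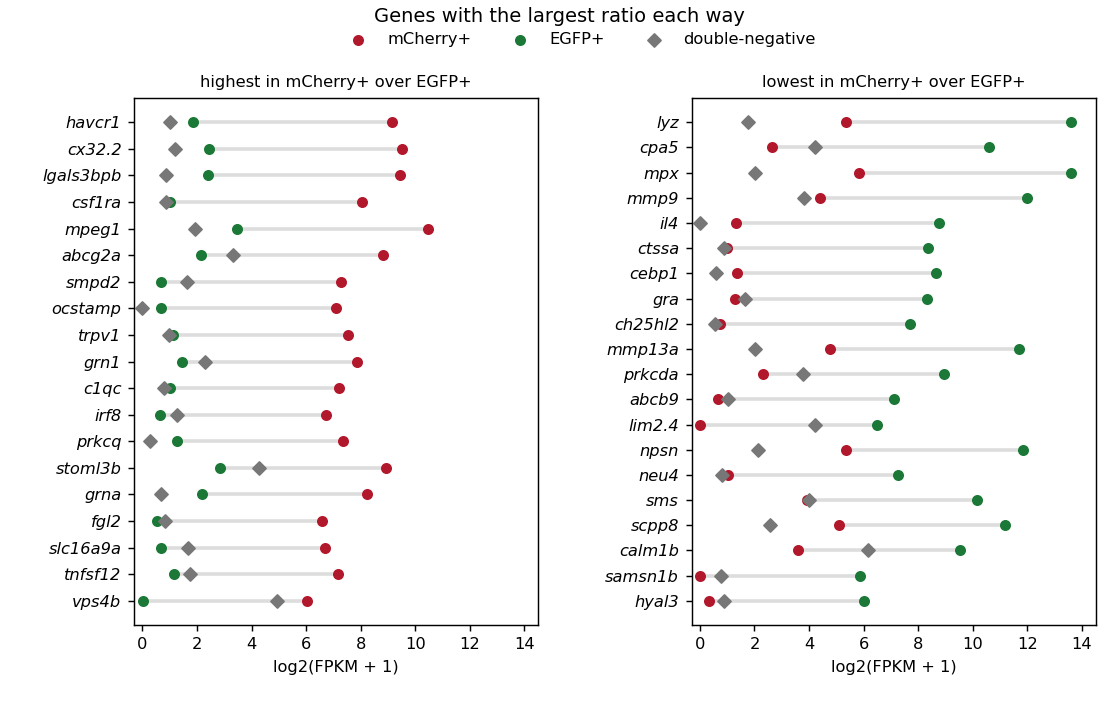
FPKM as log2(FPKM + 1) of 19 of the 20 genes with the largest ratio toward mCherry+ cells and the 20 toward EGFP+ cells among named genes that reached an FPKM of 10, in mCherry+ (red circles), EGFP+ (green circles) and double-negative cells (grey diamonds), 1 library each. In most rows the double-negative value lies near the lower of the sorted values; calm1b and lim2.4 are rows where it lies between them, as is vps4b, of which the table holds a further row.

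Transcription factor genes of the myeloid lineage differed gene by gene rather than as a list. Of 62 found, 53 passed the floor, 9 were at least 4-fold higher and 7 lower, with a median of −0.00, whose sign turned positive when no floor was used and under each of the 3 scalings. Higher in mCherry+ cells was irf8 (105 against 0.565), which in zebrafish directs macrophage over neutrophil fate. The lipid-sensing receptor pparg was at 24.6 against 1.32. Of the MiT/TFE family, known for control of lysosomal genes, mitfb was at 48.6 against 1.51 and tfeb at 20.5 against 1.95, both past 4-fold. Its other members past the floor were not, with tfe3a at 67.8 against 19.5, mitfa at 3.38 against 1.67 and tfe3b at 36.1 against 41.3. Lower in mCherry+ cells were cebp1, a C/EBP gene of zebrafish myeloid cells, at 1.59 against 406, and the ETS gene fli1a at 9.02 against 65. The Ikaros gene ikzf1 was at 8.55 against 45.3 and runx3 at 6.52 against 34.7. The PU.1 genes were within 4-fold, with spi1a at 313 against 188 and spi1b at 192 against 391, as were cebpa (138 against 99) and cebpb (123 against 203).

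Lysosomal genes lay mostly on the macrophage side. Of 53 cathepsin and lysosomal genes found, 50 passed the floor, 26 were at least 4-fold higher in mCherry+ cells and 2 lower, with a median of 2.09 where that of all genes was −0.09. Their summed FPKM was 18488 in mCherry+, 5714 in EGFP+ and 999.7 in double-negative cells. The progranulin genes led: grn1 at 229.7 against 1.76, grna at 301 against 3.56, and grn2 at 26.4 in mCherry+ and listed at 0 in EGFP+ cells. An antisense gene, grnaas, was listed at 99.4 against 19.9, and since the strand setting of the quantification is not given, reads of grna and grnaas cannot be told apart. Cysteine proteases were high in level as well as in ratio. The cathepsin B gene ctsba was at 2733 in mCherry+, 128 in EGFP+ and 75.2 in double-negative cells (log2 ratio 4.41). The cathepsin L gene ctsl1a was at 1417 in mCherry+, 56.4 in EGFP+ and 180.1 in double-negative cells (log2 ratio 4.63). The legumain gene lgmn, a protease that matures other lysosomal enzymes, was at 792 in mCherry+, 17.4 in EGFP+ and 23 in double-negative cells (log2 ratio 5.43). The aspartic protease ctsd was at 442 against 41.6, the dipeptidase ctsc at 660.2 against 79.4 and ctsz at 352 against 6.87. Beyond proteases, the saposin precursor psap was at 2118 against 179.5, the acid DNase dnase2 at 457 against 32.7, the cholesterol exporters npc1 and npc2 at 271 against 32.7 and 711 against 158, and the lysosomal calcium channel mcoln1 at 183 against 25. The exceptions were the cathepsin S copy ctssa, at 0.980 against 325, and the acid ceramidase copy asah1a, at 85.6 against 517. The granule and lysosome tetraspanin cd63 was at 2429.8 against 2339, nearly equal and far above the double-negative level of 167.

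The vacuolar pump acidifies the lysosome. All 21 proton pump genes found passed the floor, 6 were at least 4-fold higher and none was lower, with a median of 1.30. The membrane subunit gene zgc:55891 (tcirg1b in RefSeq) was at 496 in mCherry+, 45.4 in EGFP+ and 4.89 in double-negative cells (log2 ratio 3.42) and the ring subunit atp6v0ca at 1064 in mCherry+, 138 in EGFP+ and 115 in double-negative cells (log2 ratio 2.94). The catalytic-head genes atp6v1ba (403 against 63.9) and atp6v1aa (187 against 43.4) and the stalk genes atp6v1c1b (40.6 against 3.59) and atp6v1e1b (344 against 66.5) were the others past 4-fold. The 3 with a ratio below 0 were atp6v1b2, atp6v0a1b and atp6v0cb, and these were highest in double-negative cells, at 17.1, 27.5 and 42.6.

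Genes for uptake and display of foreign or dead material were higher in mCherry+ cells for part of each list. The complement opsonin C1q is made of 3 chains, and their genes c1qa (58.1 against 0.682), c1qb (43.4 against 0.592) and c1qc (146 against 1.03) all were at least 4-fold higher. Of 19 complement genes found 12 passed the floor, 4 higher and 2 lower, and the 3 C1q genes are also macrophage markers here. The properdin gene si:dkeyp-22b2.3 (cfp), which stabilises the alternative pathway, was the other higher member at 241 against 53.1. The lower members were the inhibitor factor H, cfh (1.46 against 53.8), and c8g, at 4.54 in EGFP+ and listed at 0 in mCherry+ cells. Of 26 clearance genes 24 passed, with 4 higher and none lower (median 0.47; 0.36 to 0.86 over the settings): havcr1, the stabilin stab1l (106 against 3.09), the lipoprotein scavenger receptor scarb1 (11.8 against 1.57) and the phosphatidylserine receptor timd4, at 3.51 and listed at 0 in EGFP+ cells. The engulfment adaptor elmo1 (131 against 97.5) and the integrin itgav (114 against 79) lay within 2-fold. Of 22 MHC and antigen presentation genes 13 passed, with 5 higher and none lower (median 1.58; 0.72 to 2.15 over the settings). The invariant chain genes cd74b and cd74a, chaperones of MHC class II, were at 37.3 against 1.66 and 12.1 against 0.328, the dendritic maturation gene si:ch211-149p10.2 (cd83) at 473 against 48.2 and the costimulatory receptor cd40 at 76.7 against 16.5. The MHC class I gene mhc1zba (222 against 212) and its light chain b2ml (124 against 128) were nearly equal.

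**Figure D3:**
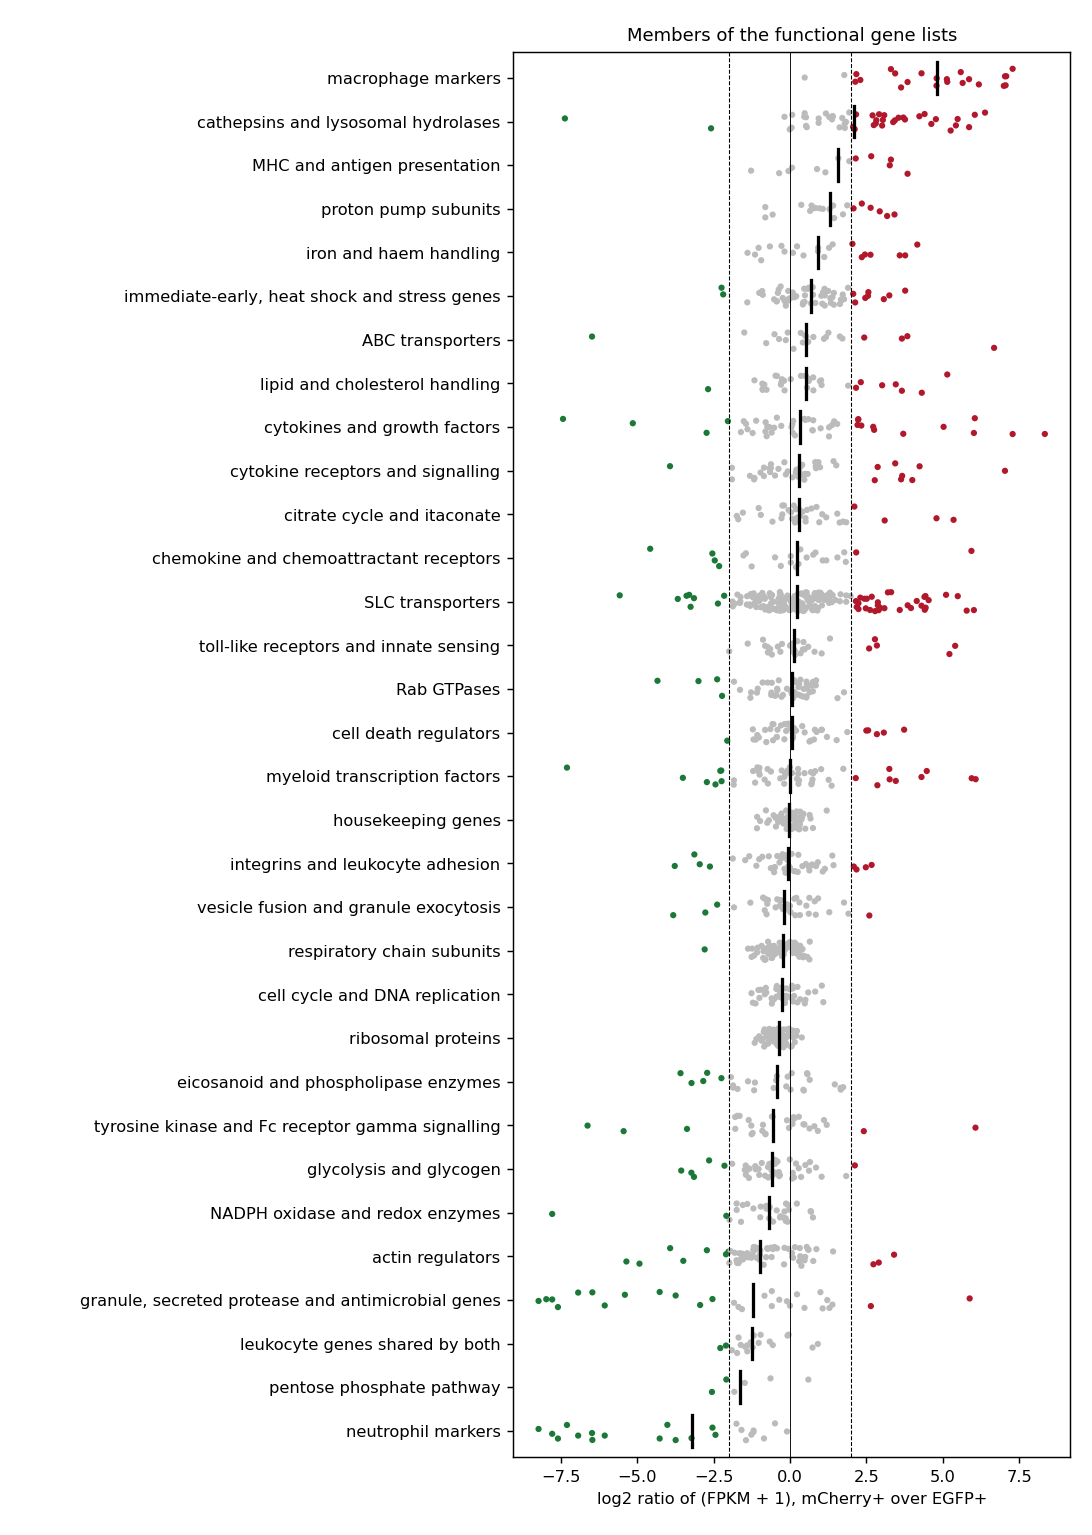
Log2 ratio of (FPKM + 1), mCherry+ over EGFP+, for each member past the floor of the functional gene lists, 1 point per gene and a black bar at the median; dashed lines mark a 4-fold ratio, red points are at least 4-fold higher and green points at least 4-fold lower. Cathepsin and lysosomal genes lie mainly to the right (median 2.09), pentose phosphate genes and the granule list to the left (medians −1.65 and −1.20), and ribosomal and housekeeping genes inside the lines.

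Genes that handle engulfed lipid and iron followed. Of 40 lipid genes found 34 passed, with 7 higher, 1 lower and a median of 0.51 (0.13 to 0.72 over the settings). The apolipoprotein E gene apoeb was at 1003 in mCherry+, 27.3 in EGFP+ and 64.5 in double-negative cells (log2 ratio 5.15), the cholesterol exporter abca1b at 121 against 8.63 and the cholesterol 25-hydroxylase ch25h at 57.2 against 1.93. Another hydroxylase-like gene lay on the other side, ch25hl2 at 0.657 against 209. The lower member was the triglyceride enzyme dgat1a (2.93 against 24.2), and the LXR gene nr1h3 (21.9 against 12.5) and the fatty acid binding gene fabp11a (25.6 against 6.12) did not reach 4-fold on the FPKM + 1 scale. Of 25 iron and haem genes 22 passed, with 7 higher and none lower (median 0.92; 0.45 to 1.28 over the settings). The haem oxygenase hmox1 was at 288 in mCherry+, 20.2 in EGFP+ and 2.41 in double-negative cells (log2 ratio 3.77), the iron exporter slc40a1 (ferroportin) at 669 in mCherry+, 54.5 in EGFP+ and 20.2 in double-negative cells (log2 ratio 3.59) and the biliverdin reductase blvrb at 39.3 against 8.77. The ferritin-like genes zgc:198419 (fthl28), zgc:92066 (fthl27) and zgc:109934 (fthl31) were at 200.1 against 10.2, 1633 against 262 and 315 against 56.6. These copies are near-identical relatives, and reads may have been split among them. The heavy chain fth1a was on the other side at 437 against 891, and the hepcidin gene hamp1, at 28.4 against 4.77, was as high in double-negative cells (29.4).

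Among membrane transporters, carriers of amino acids were found on both sides. Of 272 SLC transporter genes found 202 passed, with 32 at least 4-fold higher, 8 lower and a median of 0.24. The heavy chain slc3a2a was at 356 in mCherry+, 5.49 in EGFP+ and 12.4 in double-negative cells (log2 ratio 5.78), and its light chain partners slc7a7 and slc7a8a were at 552 against 26.9 and 251 against 15.2. The neutral amino acid carriers slc43a2b (396 against 17.8) and slc43a2a (136 against 8.50), the aromatic amino acid carrier slc16a10 (109 against 3.74) and the lysosomal glutamine exporter slc38a7 (150.2 against 5.99) were on the same side. On that side too were the lysosomal peptide carrier slc15a4 (83.6 against 8.93), the sialic acid exporter slc17a5 (78 against 9.56), the zinc exporter slc30a1a (869 against 183) and slc16a9a (102 against 0.589). The list leaves out most clone-named rows; with those whose current symbol is an SLC name, 35 of 228 were higher and 10 lower. The lower genes of the list included the arginine carrier slc7a3 (17.7 against 177), the prostaglandin transporter slco2a1 (0.824 against 85.7) and the lactate exporter slc16a3 (3.66 against 40). Of the ABC transporters 23 of 28 passed, with 4 higher, among them abca1b, abcb4 (73.1 against 4.17) and abcc5 (306 against 55.9). The 1 lower was the lysosomal peptide transporter abcb9 (0.566 against 138).

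The itaconate enzyme gene irg1 (acod1) was among the 12 highest genes of the mCherry+ library, at 3502 in mCherry+, 125 in EGFP+ and 5.57 in double-negative cells (log2 ratio 4.80). In the citrate cycle list 37 of 38 passed, 4 higher and none lower (median 0.30; 0.29 to 0.59 over the settings). Apart from irg1 these were the glutamine synthetase glula (601 against 13.7), the glutamate dehydrogenase glud1a (198 against 22.2) and the malic enzyme me2 (30.1 against 6.22), which feed or drain the cycle rather than belong to it. On the other side, short of 4-fold, were the pyruvate carboxylase pcl (6.47 against 23.9), the isocitrate dehydrogenase idh1 (14 against 47.6), the pyruvate dehydrogenase subunit pdhb (72.7 against 213) and the citrate lyase aclya (14.7 against 30.9). The pentose phosphate genes lay toward EGFP+ cells: 2 of 6 were at least 4-fold lower in mCherry+ cells and the median was −1.65. The transketolase tkt was at 213 in mCherry+, 1257 in EGFP+ and 144 in double-negative cells (log2 ratio −2.55). The dehydrogenase pgd, which produces NADPH, was at 184 in mCherry+, 781 in EGFP+ and 24.1 in double-negative cells (log2 ratio −2.08). The transaldolase taldo1 was at 134 in mCherry+, 476 in EGFP+ and 31.6 in double-negative cells (log2 ratio −1.82). Of 51 glycolysis and glycogen genes 47 passed, with 1 higher, 5 lower and a median of −0.60 (−0.77 to −0.32 over the settings). The 5 were the glycogen phosphorylase pygb (49.4 against 470.1), the phosphoglucomutase pgm1 (23.5 against 287), gapdh (68.6 against 435), gpia (96.6 against 430.2) and slc16a3. The 1 higher was the kinase pfkfb3, which raises glycolytic flux, at 189 against 42.5. Other glycogen genes, looked up after the values were seen, were the phosphatase targeting subunits zgc:77112 (ppp1r3c2b, 0.845 against 317) and ppp1r3cb (13 against 87.2), the primer glycogenin gyg1a (30 against 127) and ppp1r3da (5.61 against 7.84). Of these 4 genes 3 were at least 4-fold lower in mCherry+ cells. Respiratory chain subunits differed little, with 1 of 74 past 4-fold and a median of −0.22 that became 0.05 at equal FPKM sums.

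Polyamine genes, also looked up after the values were seen, showed a large difference in single enzymes. Of 14 found 13 passed the floor, with 1 higher and 5 lower. The spermine synthase sms was at 14.1 in mCherry+, 1146 in EGFP+ and 15.1 in double-negative cells (log2 ratio −6.25). Upstream of it, the arginase arg2 was at 6.23 against 70.1, ornithine decarboxylase odc1 at 316 against 1543 and adenosylmethionine decarboxylase amd1 at 54.8 against 289.9. The acetyltransferase sat1a was at 93.6 against 452. The polyamine oxidase si:dkey-7o6.3 (paox1), which acts downstream of that acetyltransferase, was at 259.6 in mCherry+, 3.51 in EGFP+ and 4.21 in double-negative cells (log2 ratio 5.85). Spermidine synthase srm was at 22.9 against 11.4, within 2-fold, and the antizyme oaz1a at 606 against 806.

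Granule and secreted antimicrobial genes, a list that shares members with the neutrophil markers, stood on the neutrophil side. Of 35 found 30 passed, with 12 at least 4-fold lower in mCherry+ cells, 2 higher and a median of −1.20 (−2.54 to −0.59 over the settings). The summed FPKM of the list was 45148 in EGFP+, 3433 in mCherry+ and 729.4 in double-negative cells. Besides the proteases and peroxidase above, the granule proteoglycan srgn was at 93.6 in mCherry+, 1264 in EGFP+ and 3.91 in double-negative cells (log2 ratio −3.74), the chemotactic protein gene lect2l at 99.5 against 1928 and the lectin itln1 at 0.311 against 54.4. The membrane protease adam8a was at 54.8 against 323 and nccrp1 at 77.1 against 598. The 2 higher members were the perforin-like prf1.5 (9.72 against 0.712) and the tetraspanin zgc:100919 (tspan36) at 1783 against 29.3. The peptidoglycan receptors pglyrp5 (199 against 85) and pglyrp6 (86.6 against 34.7) leaned to mCherry+ cells within 4-fold. Among matrix metalloproteinases and their inhibitors all 9 found passed the floor. With mmp9 and mmp13a lower and the membrane-type mmp14b (31.3 against 3.74) higher, the median (0.77; 0.34 to 1.05 over the settings) and the mean (−1.12) of the list differed in sign. The gelatinase mmp2 was at 28.2 in mCherry+, 16.1 in EGFP+ and 74.5 in double-negative cells (log2 ratio 0.77), highest in cells with neither reporter.

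Eicosanoid genes lower in mCherry+ cells included enzymes of leukotriene synthesis. Of 32 eicosanoid and phospholipase genes found 28 passed, none higher and 5 lower, with a median of −0.44 (−0.55 to −0.22 over the settings). The 5-lipoxygenase alox5 was at 31.7 in mCherry+, 154 in EGFP+ and 1.89 in double-negative cells (log2 ratio −2.24) and its activating protein alox5ap at 22.1 in mCherry+, 275 in EGFP+ and 0.152 in double-negative cells (log2 ratio −3.58). The leukotriene A4 hydrolase lta4h was at 122 in mCherry+, 1149 in EGFP+ and 12.3 in double-negative cells (log2 ratio −3.22), and cyp4f3, known in humans for the breakdown of leukotriene B4, at 9 in mCherry+, 70.5 in EGFP+ and 0.169 in double-negative cells (log2 ratio −2.84). Other genes of leukotriene handling had a ratio toward mCherry+ cells short of 4-fold, mgst2 with a log2 ratio of 1.74 and ptgr1 at 37 against 23.3. Cyclooxygenase 1, ptgs1, was at 3.53 against 28.6. Prostaglandin enzymes ptgis (296 against 93) and ptges (13.4 against 4.21) were higher in mCherry+ cells by less than 4-fold, and cyclooxygenase 2 copies ptgs2a (25.5 against 18.4) and ptgs2b (15.3 against 16.7) lay within 2-fold.

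Genes of the oxidative burst were measured at high levels in both populations. Of 37 NADPH oxidase and redox genes 34 passed, none higher and 2 lower, with a median of −0.67 (−0.68 to −0.39 over the settings). The 2 were mpx and pgd. The catalytic subunit cybb was at 269 in mCherry+, 524 in EGFP+ and 1.42 in double-negative cells (log2 ratio −0.96). The cytosolic subunits ncf1 (313 against 718) and ncf4 (138 against 273), the partner cyba (239.8 against 379.8) and the GTPase rac2 (242 against 639) had log2 ratios between −1.40 and −0.66. All were short of the threshold. Among enzymes that restore glutathione and thioredoxin, gsr was at 462 against 1826 and txn at 28.4 against 97.5, also short of it.

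Cytokine and receptor genes are given next, for some as ligand beside receptor, in pairs chosen after their values were seen. Of 62 cytokine and growth factor genes 48 passed, with 12 higher, 4 lower and a median of 0.32 (0.17 to 0.55 over the settings). Of 55 cytokine receptor and signalling genes 47 passed, with 8 higher, 1 lower and a median of 0.31 (0.20 to 0.52 over the settings). The receptor csf1ra was high in mCherry+ cells, and its ligand genes csf1a (1.41 against 0.449) and csf1b (2.90 against 0.946) were low in both libraries. RefSeq gives the name of a further ligand, il34, to 2 rows of the table, so its level is uncertain. The row si:ch211-239j19.3, looked up after the values were seen, was at 9.39 in mCherry+, 259.5 in EGFP+ and 3.50 in double-negative cells (log2 ratio −4.65), and the row il34 at 0.624 in mCherry+ and listed at 0 in the others. The G-CSF gene csf3 was at 531 in mCherry+, 79.5 in EGFP+ and 4.38 in double-negative cells (log2 ratio 2.72), and its receptor csf3r at 365 in mCherry+, 659 in EGFP+ and 0.670 in double-negative cells (log2 ratio −0.85). The anti-inflammatory cytokine il10 was at 2.87 in mCherry+, 136 in EGFP+ and 1.17 in double-negative cells (log2 ratio −5.14), and its receptor il10ra at 125 in mCherry+, 8.92 in EGFP+ and 0.343 in double-negative cells (log2 ratio 3.67). The type 2 cytokine il4 had its peak in EGFP+ cells, and the receptor chains il4r (141 against 18.5) and il13ra1 (58.9 against 4.50) were at least 4-fold higher in mCherry+ cells. The cytokine il6 was at 34.7 against 6.07, and its receptor il6r at 16 against 258. Other pairs lay on the same side, with il12a at 12.1 in mCherry+ and listed at 0 in EGFP+ cells beside il12rb2 (55.6 against 3.55), and tnfa (70.4 against 9.58) beside tnfrsfa (115 against 18.6). Pairs were not tallied, and signalling between the populations was not measured.

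Other cytokines that differed were inflammatory or chemotactic. The chemokine zgc:193706 (ccl35.1) was at 2943 in mCherry+, 8.08 in EGFP+ and 7.58 in double-negative cells (log2 ratio 8.34). The chemokine si:dkey-25o1.6 (ccl34b.1), counted here also as a macrophage marker, was at 877 in mCherry+, 4.62 in EGFP+ and 4.13 in double-negative cells (log2 ratio 7.29). The TNF family gene tnfsf12 (143 against 1.23) was on the mCherry+ side. The second TNF gene tnfb was nearly equal at 194 against 184, and il1b was at 289.7 against 787, within 4-fold and toward EGFP+ cells. On the EGFP+ side stood ifng1-2, at 5.63 and listed at 0 in mCherry+ cells, and vegfab (2.35 against 12.7). Receptors tnfrsf9a (149 against 6.94) and il2rb (44.8 against 1.86) were at least 4-fold higher in mCherry+ cells.

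Chemoattractant and pathogen receptors differed in a few members. Of 30 chemoattractant receptors 24 passed, with 2 higher, 4 lower and a median of 0.24, where over all genes 4.22% were higher and 3.61% lower. The chemokine receptor ccr12.3 (93.5 against 0.540) and the chemerin receptor cmklr1 (358 against 78.9) were higher. The lower were the sphingosine phosphate receptor s1pr4 (3.21 against 99.1), the lysophospholipid receptor p2ry10 (0.412 against 7.21), ccr9a (68.6 against 382) and the oxysterol receptor gpr183 (24.3 against 125). The retention receptor cxcr4b was at 93.4 against 224, between the thresholds. Of 35 innate sensing genes 33 passed, with 5 higher and none lower (median 0.12). These were tlr21 (51.5 against 0.237) and tlr3 (11.1 against 1), known as sensors of nucleic acids, tlr18 (62.8 against 0.714), tlr1 (8.37 against 0.362) and the inflammatory caspase caspb (12.1 against 0.820). The flagellin receptor tlr5b leaned the other way, at 97.7 against 256, and the shared adaptors myd88 (18.8 against 17.3) and pycard (98.5 against 73.2) were nearly equal. Of 24 interferon-stimulated genes 16 passed, with 3 higher and none lower (median 0.90; 0.33 to 1.34 over the settings), led by zgc:123068 (ifi27.1), at 13.1 and listed at 0 in EGFP+ cells, and isg15 (12.8 against 1.91).

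Actin regulators leaned to the EGFP+ library. Of 71 actin regulators 68 passed, with 3 higher, 7 lower and a median of −0.99. At least 2-fold lower were 34 of the 68, where the share over all genes was 14.4%. Cofilin, cfl1, which severs filaments, was at 103 in mCherry+, 1580.0 in EGFP+ and 579 in double-negative cells (log2 ratio −3.92), and the gelsolin family gene scinlb at 36.5 in mCherry+, 1138 in EGFP+ and 10.8 in double-negative cells (log2 ratio −4.92). The WASP partner gene zgc:172057 (wipf1a, 2.57 against 145) had the largest ratio of the list toward EGFP+ cells. Also at least 4-fold lower were swap70a (0.485 against 15.7) and the myosin myh9a (34.7 against 234). So were the WASP gene wasb (117 against 504) and the Arp2/3 subunit arpc3 (144 against 583). Against this, the cytoplasmic actin genes themselves were higher in mCherry+ cells, actb1 at 483 in mCherry+, 44.6 in EGFP+ and 420.4 in double-negative cells (log2 ratio 3.41) and actb2 at 1056 in mCherry+, 158 in EGFP+ and 470.4 in double-negative cells (log2 ratio 2.73). The EGFP+ library thus had the lowest value of both actin genes among the 3 libraries. The near-identical actins may share reads. The shared leukocyte list had 20 of 20 past the floor, none higher, 2 lower and a median of −1.25. The 2 were ikzf1 and wasb, and wasb is also counted among the actin regulators, so the lists are not separate. The coronin coro1a was at 562 in mCherry+, 1866 in EGFP+ and 3.60 in double-negative cells (log2 ratio −1.73) and the plastin lcp1 at 239 in mCherry+, 733 in EGFP+ and 1.48 in double-negative cells (log2 ratio −1.61), both low in double-negative cells. Integrin and adhesion genes were balanced, with 4 higher, 4 lower among 49 and a median of −0.08 that turned to 0.02 under median-ratio scaling and 0.16 at equal FPKM sums. The fibronectin receptor chain itga5 (35.7 against 4.76) was higher, and paxillin pxn (12.3 against 181) and itgb3a (11.9 against 112) were lower.

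Vesicle and signalling genes showed single members of large families apart from their relatives. Of 43 vesicle fusion genes 40 passed, with 1 higher, 3 lower and a median of −0.19, which became 0.07 at equal FPKM sums. Genes known for granule release, vamp8 (25.2 against 368), stx3a (4.12 against 33.9) and rab27a (42.4 against 225), were lower, and zgc:91909 (rab7b), a late endosome GTPase, was higher at 180.2 against 28.9. Of the 51 Rab GTPases of the list past the floor 4 were lower and none higher. With clone-named rows added by current symbol, which brings in rab7b, 1 of 57 was higher and 5 lower. Over all genes the shares were 4.22% higher and 3.61% lower. Among 33 kinase and Fc receptor signalling genes past the floor 2 were higher and 3 lower (median −0.56; −0.59 to −0.23 over the settings), namely prkcq and yes1 (43.4 against 7.32) against prkcda, lat (1.13 against 21) and si:dkey-10p5.7 (cd7al, 9.09 against 438). In the G-protein list the subunit gng10 was at 92 against 2.81 and the arrestin arrb2a at 3.73 against 60.5, whereas its relative arrb2b was at 166 against 236. The tetraspanin list had 3 higher and 2 lower of 26 past the floor. With clone-named rows it had 4 higher and 3 lower of 33, and the rows added include zgc:100919 (tspan36) and zgc:65811 (cd9r), which was at 147 in EGFP+ and listed at 0 in mCherry+ cells.

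Stress and cell death genes differed in part. Of 61 immediate-early, heat shock and stress genes all passed, with 8 higher, 2 lower and a median of 0.69. The immediate-early genes jund (308 against 51.1), fosl1a (362 against 85.3) and egr2b (25.9 against 3.58) were at least 4-fold higher, while fos (1200.5 against 710.4), jun (901 against 432) and hsp70l (465 against 347) were within 4-fold and were high in all 3 libraries. The BH3-only gene pmaip1 was the second highest gene of the mCherry+ library, at 9822 in mCherry+, 1167 in EGFP+ and 465 in double-negative cells (log2 ratio 3.07). Of 46 cell death genes past the floor 5 were higher and 1, bida (48.1 against 203), lower, with a median of 0.05. Cell cycle genes (46 past the floor, median −0.26, and 0.01 at equal FPKM sums) and ribosomal protein genes (82, median −0.37; −0.37 to −0.08 over the settings) had no member past 4-fold. The same held for the 61 housekeeping genes, whose log2 ratios had a median of −0.02 (0.11 under median-ratio scaling and 0.27 at equal FPKM sums) and a standard deviation of 0.44 across genes. That list does not hold gapdh, actb1 or actb2, which were past 4-fold, and it was written with earlier results of these data known.

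Signals of other cell types were measured in both libraries and differed for the lens and, by less, for photoreceptor genes. Of 55 lens genes 35 passed the floor and 20 did not; 23 of the 35 were at least 4-fold higher in EGFP+ than in mCherry+ cells and none the reverse (median −2.81; −4.03 to −1.35 over the settings). Their summed FPKM was 1024 in EGFP+, 35.8 in mCherry+ and 149.6 in double-negative cells. The lens membrane gene lim2.4 was at 87.9 in EGFP+, listed at 0 in mCherry+ and 17.6 in double-negative cells, the crystallin crybb1 was at 2.80 in mCherry+, 132 in EGFP+ and 20.9 in double-negative cells (log2 ratio −5.13) and the aquaporin mipb at 0.936 in mCherry+, 82.2 in EGFP+ and 8.04 in double-negative cells (log2 ratio −5.43). The crystallin crygm2d8 and the connexin cx23 were also listed at 0 in mCherry+ cells. Crystallin copies are similar in sequence and may share reads. Photoreceptor genes had 3 of 32 past 4-fold, all toward EGFP+ cells (median −1.28, and −1.51 to −0.70 over the settings). At least 2-fold lower in mCherry+ cells were 22 of the 32, where the share over all genes was 14.4%. The summed FPKM of the list was 177.9 in mCherry+, 499.1 in EGFP+ and 874.2 in double-negative cells. Epidermal genes had 2 higher and 3 lower of 41 past the floor, among the lower the keratinocyte gene icn at 83.4 in mCherry+, 523 in EGFP+ and 489 in double-negative cells (log2 ratio −2.64) and zgc:165571 (agr1) at 3.87 in mCherry+, 41.5 in EGFP+ and 58.5 in double-negative cells (log2 ratio −3.12). Muscle genes had none of 45 past 4-fold. Their sums were 10781 in mCherry+, 14931 in EGFP+ and 5968 in double-negative cells. The FPKM sums over all genes followed the same order, at 571639, 696949 and 356886. The neuron list had none past 4-fold of 42. Of fibroblast genes 1 of 30 was higher, of pigment cell genes 1 of 23 (csf1ra), and of cartilage genes 1 of 18 was lower. Of liver, pancreas and gut genes 2 of 36 were higher and 2 lower (cpa5 among them). Over all genes the shares were 4.22% higher and 3.61% lower. These few members past 4-fold are thus not read as a trait of their lists. The part of these other cell types in the gene differences above was not tested.

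**Figure D4:**
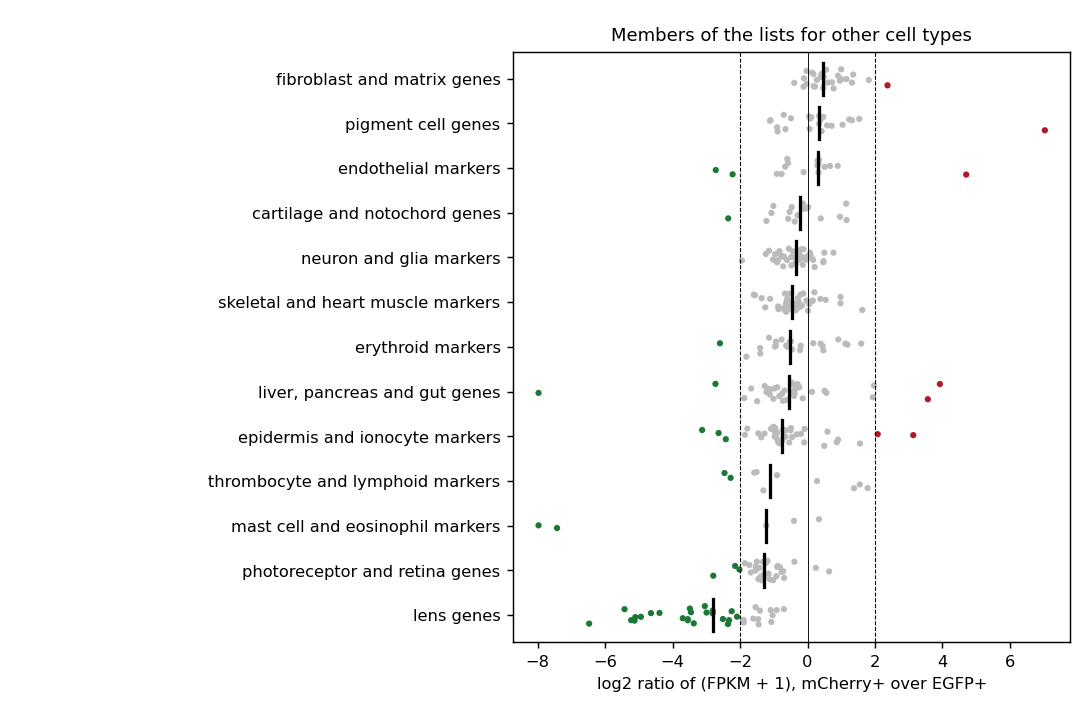
Log2 ratio of (FPKM + 1), mCherry+ over EGFP+, for each member past the floor of the lists for other cell types, 1 point per gene and a black bar at the median; dashed lines mark a 4-fold ratio. The 35 lens genes all lie left of 0, the 45 muscle genes lie inside the dashed lines, and cpa5 and il4 are the far left points of the mast cell list.

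Markers of other blood and vascular cells were measured as well. In the list for mast cells and eosinophils 5 of 8 genes passed the floor, and cpa5 and il4 were at least 4-fold higher in EGFP+ cells. The summed FPKM of the list was 15.1 in mCherry+, 1999 in EGFP+ and 71.8 in double-negative cells, nearly all of the EGFP+ sum from cpa5 and il4. The stem cell factor receptor kita, also a mast cell marker, was at 1.76 in mCherry+, 1.18 in EGFP+ and 5.30 in double-negative cells (log2 ratio 0.34), and the related cytokine il13 at 0.366 in mCherry+, 2.19 in EGFP+ and listed at 0 in double-negative cells (log2 ratio −1.22). The list of thrombocyte and lymphoid genes had 10 of 52 past the floor, 2 of them lower, ikzf1 and ccr9a, both also used in other lists. Erythroid genes had 1 lower of 24, fech (3.08 against 23.7), where the share over all genes was 3.61%. The embryonic globin hbae3 was at 66.6 in mCherry+, 96.3 in EGFP+ and 2201 in double-negative cells (log2 ratio −0.53). Endothelial genes had 18 past the floor, stab1l higher and fli1a and erg (1.02 against 8.44) lower, while the defining endothelial genes kdrl (2.67 against 2.98) and cdh5 (5.86 against 3.83) were low and close.

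Zebrafish hold many duplicated genes, whose copies are often named a and b. There were 535 pairs of genes that share a name but for a last letter a or b, each at an FPKM of 5 or more in mCherry+ or EGFP+ cells. They were matched by name alone, and some are not duplicates but different subunits, such as cyba and cybb or sdha and sdhb, so the counts mix both. The median difference of the log2 ratios within a pair was 0.71, and in 68 pairs it was 4-fold or more. In 22 pairs the genes were at least 2-fold apart in opposite directions. In 9 pairs both were at least 4-fold higher in mCherry+ cells, in 2 both were lower, and in 70 exactly 1 gene passed 4-fold. Over all genes the shares were 4.22% higher and 3.61% lower. Pairs of genes with unlike names were not counted, so these counts are not read as a trait of duplicates. The Ras-association gene rassf2a was at 81.8 against 19, and rassf2b at 1.61 against 59.8. The galectin lgals2a was at 880.1 against 26 and lgals2b at 9.57 against 21.7. The zinc finger gene klf2a was at 34.5 against 2.73 and klf2b at 37.7 against 182, and the tetraspanin cd82a was at 57.2 against 9.42 and cd82b at 20.6 against 166. In these 4 pairs the ratio of a lay toward mCherry+ cells and that of b toward EGFP+ cells. The reverse held for ppdpfa (16.9 against 542) with ppdpfb (308 against 147). It also held for lepa (1.23 against 5.06) with lepb, at 11.1 in mCherry+ and listed at 0 in EGFP+ cells.

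In other pairs 1 gene was nearly equal and the other differed. The transporter heavy chain slc3a2b (80.2 against 91.5), glutamine synthetase glulb (28.5 against 29.5) and calmodulin calm1a (56 against 66.2) were nearly equal, unlike slc3a2a, glula and calm1b. The glycerol phosphate dehydrogenase gpd1a was at 191 against 5.28 and gpd1b at 5.20 against 7.07. The ESCRT ATPase vps4a was nearly equal at 9.50 against 9.42, while vps4b, among the 20 largest ratios, was at 63.8 in mCherry+, 0.0237 in EGFP+ and 29.5 in double-negative cells (log2 ratio 5.98). RefSeq gives the symbol vps4b to another row as well, which has a clone name. The sum of both rows of vps4b was 141 against 154, a log2 ratio of −0.13, so the gene as a whole was nearly equal and its place among the largest ratios belongs to 1 row. The acid ceramidases asah1a (85.6 against 517) and asah1b (292 against 81.2) lay on opposite sides, as did the lipid kinases pi4k2a (166 against 36.3) and pi4k2b (12.4 against 63.9). In all, 101 RefSeq symbols had more than 1 row in the table, and 28 of those rows were past 4-fold. For 15 of the 28 the summed rows were not past 4-fold in that direction. For the other 13 they were, among them npsn, cfl1, stx3a, zgc:193706 and si:ch211-239j19.3. The log2 ratios of these sums were −5.84, −2.49, −2.62, 8.36 and −4.56, in that order. With rows summed by symbol the counts over all genes were 468 higher and 404 lower. Copies with similar sequence may also have shared reads in the authors' quantification.

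**Figure D5:**
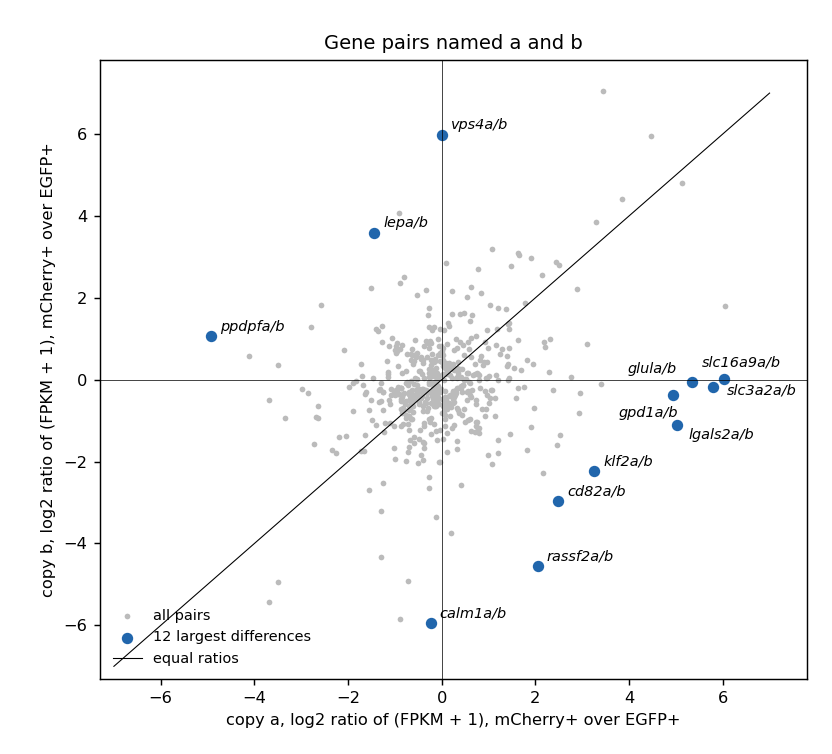
Log2 ratio of (FPKM + 1), mCherry+ over EGFP+, of the gene named a (x axis, copy a) and the gene named b (y axis, copy b) for 535 pairs matched by name; the line marks equal ratios and blue points the 12 pairs with the largest difference. The pairs rassf2, klf2 and cd82 lie in the quadrant where copy a is higher in mCherry+ and copy b in EGFP+ cells, and ppdpf and lep in the opposite quadrant.

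Some of the genes past 4-fold are neighbours on the chromosome when only genes past the floor are ordered. Of the genes past the floor 10970 could be ordered by RefSeq (assembly GRCz12tu, used for order only), and 10 runs of 3 or more adjacent measured genes were all past 4-fold in the same direction, 7 toward mCherry+ and 3 toward EGFP+ cells, with 33 genes in all. They included the C1q genes c1qa, c1qb and c1qc, and mpeg1 with prf1.5 and zgc:100919 (tspan36). Ferritin-like genes formed a run of 6 with aldh16a1 (74.1 against 8.26) at its end. The galectin-3-binding protein genes lgals3bpa and lgals3bpb made another with zgc:112492, and the autophagy receptor sqstm1 (1384 against 215) stood beside the proton pump gene zgc:55891 and zgc:123335. Toward EGFP+ cells, itln1 stood beside pi4k2b and tusc3 (5.85 against 28), and crystallin copies formed a run. Several runs hold tandem copies whose reads may be shared. Genes not past the floor may lie between the members of a run. Over all genes 4.22% were higher and 3.61% lower, and the runs that these shares alone would give were not counted. The number of runs is thus not read as a result.

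The genes past 4-fold were also placed by their level in the double-negative library. Of the 479 genes higher in mCherry+ cells 319 (66.6%) were at least 4-fold above double-negative cells in mCherry+, and for 282 of them EGFP+ cells were within 4-fold of double-negative cells. For 34 EGFP+ cells were also at least 4-fold above, among them irg1 and slc7a7. Another 47 were within 4-fold of double-negative cells in mCherry+ but at least 4-fold below them in EGFP+ cells. Of the 410 genes higher in EGFP+ cells 281 (68.5%) were at least 4-fold above double-negative cells. For 207 of them mCherry+ cells were within 4-fold of double-negative cells, and for 65 mCherry+ cells were above as well. Examples of the last are mpx, lyz and srgn. Another 47 of the 410 were within 4-fold of double-negative cells in EGFP+ but at least 4-fold below them in mCherry+ cells. In all, the lower library was at least 4-fold below double-negative cells for 50 of the 479 (10.4%) and 62 of the 410 (15.1%). Both comparisons use the same double-negative library and are not independent of each other. The genes were also picked for a high value in the library then set against double-negative cells, which by itself raises these shares. The share over all genes was not counted, so the 66.6% and 68.5% are not read as a result.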

How the data were processed

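Trizol LS with a carrier was used to extract RNA from the FACS-sorted cells, which was cleared of ribosomal RNA, made into libraries from 50 ng with a SMARTer low-input kit and sequenced on an Illumina HiSeq instrument, per the labels' protocols. Reads were trimmed with cutadapt, aligned to danRer7 with TopHat2 2.0.11 and quantified with Cufflinks 2.2.1, per the submitters' processing notes. No settings, annotation or strand option are named in the sources used here. The deposited values are FPKM per gene, made by the authors, 1 column per library. They are normalized for length and depth, so a value is relative to its library, but the sums differ between libraries. FPKM sums were 571639 (mCherry+), 696949 (EGFP+) and 356886 (double-negative), and the small RNA rn7sk took 8.45% and 10.5% of the first 2. Whole reads were not recovered, and depth is unknown.

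Ratios were log2 of (FPKM + 1), mCherry+ over EGFP+, for genes that reached an FPKM of 1 in either library, computed with Python 3.11.15, pandas 2.3.3, numpy 2.4.6 and matplotlib 3.10.9 and tested on simulated data. With 1 library per population no test was made. The 52 gene lists held 2851 entries, of which 2267 were found, 185 of them through an older symbol. Current names came from RefSeq (GRCz12tu) for 13852 of 14428 genes; chromosome order from it was used for neighbouring genes, and no coordinates are given. The comparison, the lists and their members were chosen with earlier results of these data known. Some genes and 1 gene list are not reported here. Alternatives were other pseudocounts, floors, thresholds and scalings; "over the settings" gives a list median's lowest and highest value over all but the thresholds.

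Genes were named by a rule: the 20 largest ratios each way with an FPKM of 10 or more, leaving out clone, locus and small RNA names; up to 6 highest and 6 lowest members of each list with an FPKM of 5 or more; the 12 highest levels in each library; the 12 pairs named a and b with the largest difference; and mpeg1 and mpx. The genes named outside it were chosen after their values were seen: adam8a, aldh16a1, amd1, arg2, arpc3, arrb2b, asah1b, atp6v1b2, blvrb, c8g, cebpa, cebpb, crygm2d8, csf1a, csf1b, csf3, ctsba, ctsc, ctsd, ctsl1a, cx23, cxcr4b, cybb, dnase2, fabp11a, fos, fosl1a, grn2, grnaas, gyg1a, hbae3, hsp70l, il13, il34, il4r, il6, itgav, itln1, jun, kdrl, kita, lect2l, mcoln1, mfap4, mitfa, myd88, nccrp1, ncf4, npc2, nr1h3, oaz1a, odc1, pi4k2a, pi4k2b, ppp1r3cb, ppp1r3da, psap, psmd7, ptgs2a, ptgs2b, pycard, sat1a, sdha, sdhb, si:ch211-239j19.3, si:dkey-7o6.3, slc15a4, slc17a5, slc30a1a, slc38a7, slc43a2a, slc43a2b, slc7a7, slc7a8a, spi1b, sqstm1, srgn, srm, tfe3a, tfe3b, tfeb, timd4, tnfa, tnfb, tusc3, zgc:112492, zgc:123335, zgc:158446, zgc:173915, zgc:65788, zgc:65811 and zgc:77112.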

Additional observations from a re-analysis of the deposited data

How the results depend on the processing

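The counts of 479 genes higher and 410 lower came from 1 library each, so leaving out a replicate was not possible. No paired analysis was possible because each population has 1 library. The counts stayed within 1.5 times of these values with a floor of 10 FPKM (408 and 336), under median-ratio scaling (523 and 379) and under housekeeping scaling (482 and 409). The same held with rows of 1 RefSeq symbol summed (468 and 404, chosen after seeing the data). Without a floor the counts were again 479 and 410, by construction. A gene under an FPKM of 1 in both libraries cannot reach a 4-fold ratio of (FPKM + 1). The counts moved with the pseudocount, to 808 and 743 at 0.1 and to 281 and 222 at 5. By construction they moved with the threshold, to 1473 and 1637 at 2-fold and to 217 and 178 at 8-fold. The share of genes past 4-fold that were higher in mCherry+ cells was 53.9%, and 64.1% at equal FPKM sums. Over 6116 genes that reached an FPKM of 5 in both libraries the median log2 ratio of the FPKM values was −0.12, that of the housekeeping genes −0.02, and that of the FPKM sums −0.29, and each scaling removes its own shift. Of the 215 genes named by the rule that were past 4-fold, 162 were still so with a pseudocount of 5 and 204 at equal FPKM sums. Under median-ratio scaling 210 were, and under housekeeping scaling all 215. The floors were not applied to named genes and a pseudocount of 0.1 only enlarges a ratio, so these settings could not lower the number. No list median beyond 1 on the log2 scale changed sign under any of these settings. For a gene past 4-fold a change of sign was not possible, because pseudocounts keep the sign and the scalings shift ratios by far less than 4-fold. Of 36 lists with a median of at least 0.3 in size, 28 moved by over 1.5 times under some setting, 22 of them with a pseudocount of 5, 16 at equal FPKM sums, 10 with a floor of 10 FPKM and 8 with no floor. Among these were the complement list (0.54, and 3.48 with a floor of 10 FPKM) and the mast cell list (−1.22, and −7.70 with that floor, −0.21 with none). Some list medians under 1 in size did change sign. With a floor of 10 FPKM the tetraspanin median went from 0.14 to −0.04 and that of pigment cell genes from 0.34 to −0.65. The median of G-protein genes became 0.02 under median-ratio scaling, and that of cartilage genes 0.01 at equal FPKM sums. A search of promoters for motifs, planned at the start, was not run because no promoter sequences were used here. The depth of the libraries is not known from FPKM, so no counting error can be given.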
